A study of Mus musculus with 42 samples.

Results

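The genes described here are 45 genes of DNA replication and nucleotide supply, out of 18193 genes named on the arrays. They were chosen by symbol from a list of replication proteins, and all 45 were found in the annotation of the array. Each gene was read through 1 probe set, the one with the highest mean over all arrays. All 45 passed the filter on dim genes, which left 15478 genes for testing.

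The arrays came from B6D2F1 mouse embryos, cultured in drops of human tubal fluid medium after injection of a morpholino into the 1-cell stage. A morpholino is an antisense oligomer that blocks translation or splicing of its target mRNA, so that the target's own mRNA need not fall, and which of these actions each oligomer has is not labelled. The morpholinos were directed at Sall4, Nanog and Oct4 (whose symbol is Pou5f1), transcription factors of the early embryo, and a control oligomer had no match in the mouse genome or transcriptome. Embryos were collected 44 h or 20 h after injection, with 3 arrays in each of 14 groups, and the number of embryos behind an array is not stated in the labels.

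At 44 h the groups were Oct4 morpholino, Sall4 morpholino, control morpholino and uninjected embryos of a joint Oct4 and Sall4 experiment, and Nanog morpholino, control morpholino and uninjected embryos of a Nanog experiment. At 20 h the groups were Oct4 morpholino and uninjected embryos of an Oct4 experiment, Sall4 morpholino and uninjected embryos of a Sall4 experiment, and Nanog morpholino, control morpholino and uninjected embryos of the Nanog experiment. The Oct4 and Sall4 experiments at 20 h had no control-injected arrays. No genotype beyond the B6D2F1 strain is labelled, and the stage each group had reached was not labelled beyond preimplantation.

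Before a cell divides, the origin recognition complex marks replication origins, and Cdc6 and Cdt1 load the MCM helicase on them, while geminin restrains Cdt1. Cdc45 and the GINS proteins turn the loaded helicase into a running one. Polymerase alpha with primase starts each strand, replication factor C loads the PCNA clamp, and the polymerases delta and epsilon extend the strands. Ribonucleotide reductase and thymidylate synthase provide the nucleotides. In the early mouse embryo the first divisions draw on proteins and mRNAs stored in the egg, and the embryo's own genes take over from about the time of the first cleavage.

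Values are intensities as deposited, with no unit. The 18 arrays of the Nanog experiment had medians of 193 to 227, and the other 24 arrays had medians of 26.1 to 33.3, so levels were not compared between experiments. Log2 changes are differences of log2(intensity + 16), with their standard error (SE), and understate the change of dim genes. All tests used limma, with the Benjamini-Hochberg adjustment taken over all 15478 genes, and passing means that the adjusted p was under 0.05. The replicates carry the word biological in their labels, which do not say whether they are separate matings or collections, so that the p-values cover the spread among the arrays and no more. With 3 arrays a group, the number of arrays limits the precision. In whole embryos, a smaller share of cells that hold an mRNA and less of that mRNA per cell cannot be told apart.

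The targeted mRNAs gave little check of the labels. Pou5f1 was at 2218 ± 259.9 with the Oct4 morpholino at 44 h, against 3925 ± 456 with the control morpholino (log2 change -0.82, SE 0.186, adjusted p = 0.00323, limma). Pou5f1 also fell with the Sall4 morpholino (-0.88, adjusted p = 0.00455, limma) and the Nanog morpholino (-0.70, adjusted p = 0.0236, limma) at 44 h, so its fall was not confined to the Oct4 label. At 20 h Pou5f1 did not pass with the Oct4 morpholino (log2 change 0.22). Sall4 did not pass with the Sall4 morpholino (0.21 at 44 h and 0.00 at 20 h), while it fell with the Oct4 morpholino (-0.99 at 44 h and -0.76 at 20 h, adjusted p = 0.000725 and 0.0300, limma). Nanog did not pass with the Nanog morpholino (-0.61 at 44 h and -0.29 at 20 h). The summed level of 16 early embryo markers was 60417 to 75953 on Nanog experiment arrays and 22033 to 32321 on the others, and Nanog itself was near the floor at 20 h in the Sall4 experiment. For 11 granulosa and cumulus cell markers the sums were 1310 to 2344 and 131 to 1066. The highest sum outside the Nanog experiment came from 1 uninjected array at 44 h, whose replicates were at 185 and 203. The 10 blood and stroma markers summed to 1048 to 4616 and 144 to 703, and the 6 sperm markers to 1625 to 3280 and 241 to 523.

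Most of the 45 genes were bright in these embryos. On every array, 38 of them stood above the median probe set of that array. The spread between replicates, as a pooled SD on the log2 scale, had a median of 0.391 over the 45 genes and 0.500 over all genes tested. It was smallest for Mcm6 (0.121), a subunit of the replicative helicase, and for Pcna (0.142), the sliding clamp. Rpa2 (0.156), which binds single-stranded DNA, and Gmnn (0.160), which encodes geminin, came next. It was largest for Rfc3 (1.24), a clamp loader subunit, and Tyms (1.22), thymidylate synthase, which lay below the array's median on 20 of 42 arrays. A change of the same size was therefore easier to detect for Mcm6 than for Tyms. Of the 45 genes, 10 (22.2%) passed in at least 1 of 6 comparisons of a knockdown with control-injected or uninjected embryos, against 19.1% of all genes tested. In turn, 19 (42.2%) passed in none of the 14 comparisons made, against 52.9% of all genes. These shares were not tested against each other.

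With the Oct4 morpholino at 44 h, some genes of the clamp loader, the MCM helicase and primase were lower than in control-injected embryos, and the origin recognition gene Orc1 was higher. Of the 45 genes, 7 fell and 1 rose, in a comparison in which 11.6% of all genes passed. The 8 that passed are 17.8% of the 45, above that background, and the difference in shares was not tested. By direction, 6.18% of all genes fell and 5.38% rose. The median log2 change of the 45 genes was -0.44, with 33 of them below 0, beside a median of 0.02 over all genes tested. Markers of the early embryo moved in the same comparison: 4 of 16 fell and 1 rose, with sums of 22033 to 24876 with the Oct4 morpholino and 26681 to 29668 with the control. Their part in the result was not tested. Granulosa and cumulus markers summed to 159 to 244 with the Oct4 morpholino and 190.1 to 467 with the control, and none of the 7 tested passed.

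Mcm5, a subunit of the ring-shaped MCM helicase that unwinds DNA, read 296, 314 and 736 on the Oct4 morpholino arrays, against 1808, 1963 and 2199 on the control arrays. All 3 knockdown arrays lay below every control array (log2 change -2.23, SE 0.254, adjusted p = 4.41e-07, limma). Uninjected embryos of the same experiment held 2195, 2273 and 1928. Mcm10, a factor that helps to activate the helicase, read 701, 436 and 692 with the Oct4 morpholino and 1259.8, 1719.7 and 1101 with the control, again without overlap (log2 change -1.14, SE 0.223, adjusted p = 0.000723, limma). The other 5 subunits of the ring did not pass. Mcm2, Mcm3, Mcm4 and Mcm7 had log2 changes of -0.45, -0.09, -0.09 and -0.54, and Mcm6 had 0.25. The 95% interval of the log2 change was -2.75 to -1.71 for Mcm5, -0.74 to 0.56 for Mcm3 and -0.02 to 0.53 for Mcm6 in this comparison.

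Replication factor C opens the PCNA ring and sets it on DNA, and it is made of the large subunit Rfc1 and the small subunits Rfc2 to Rfc5. Rfc4 read 109, 38.1 and 67.5 on the Oct4 morpholino arrays, against 369.7, 704 and 496 on the control arrays. No other of the 45 genes fell by more in this comparison (log2 change -2.66, SE 0.461, adjusted p = 0.000175, limma). Uninjected embryos held 377, 452 and 616. Rfc5 read 112, 39.7 and 73.8 with the Oct4 morpholino and 274, 369 and 188 with the control (log2 change -1.72, SE 0.429, adjusted p = 0.00714, limma). Rfc2 was more scattered among the knockdown arrays, with 89.1, 364 and 646, against 1143, 972 and 1133 with the control (log2 change -1.88, SE 0.500, adjusted p = 0.0116, limma). The arrays of Rfc4, Rfc5 and Rfc2 did not overlap between the groups. Rfc1 (log2 change -0.44, SE 0.212) and Rfc3 (-0.82, SE 0.967) did not pass, and neither did the clamp itself, Pcna (-0.05, SE 0.148). Without the first Oct4 morpholino array the adjusted p of Rfc2 was 0.145. That of Rfc5 was 0.0536 without the second Oct4 morpholino array, 0.0518 without the second control array and 0.0652 against uninjected embryos.

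Prim1, the catalytic subunit of primase, which lays the RNA primers from which each strand starts, read 82.2, 243 and 117 on the Oct4 morpholino arrays and 391, 639.6 and 574 on the control arrays. The groups did not overlap (log2 change -1.85, SE 0.289, adjusted p = 4.56e-05, limma), and uninjected embryos held 553, 606 and 796. Its partners in the polymerase alpha-primase complex did not pass, with log2 changes of -0.87 for Prim2, 0.37 for Pola1 and -0.04 for Pola2. Cdt1, which brings the helicase to origins, read 1494, 2138 and 1289 with the Oct4 morpholino and 2791, 2675 and 2454 with the control (log2 change -0.71, SE 0.195, adjusted p = 0.0143, limma). No array overlapped, but the call was lost without the first control array (adjusted p = 0.0551), the first Oct4 morpholino array (0.0520) or the third (0.1005), and after quantile normalization (0.0537). Gmnn, which encodes the Cdt1 inhibitor geminin, had a log2 change of -0.06, and Cdc6, the other loading factor, had 0.17.

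Orc1, the largest subunit of the origin recognition complex, moved the other way. It read 828, 786 and 752 on the Oct4 morpholino arrays, against 211, 316 and 279 on the control arrays. Every knockdown array lay above every control array (log2 change 1.51, SE 0.323, adjusted p = 0.00180, limma), and uninjected embryos held 277, 382 and 304. The other 5 subunits of the complex did not pass, with log2 changes between -0.95 (Orc5) and 0.46 (Orc2). A second, dimmer probe set of Orc1 differed by 0.21.

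No gene of helicase activation, strand synthesis, single-strand binding, Okazaki fragment maturation or nucleotide supply passed with the Oct4 morpholino at 44 h. The 4 subunits of polymerases delta and epsilon were all below 0, from -0.97 (Pole2) to -0.66 (Pole). In nucleotide supply, Tk1, the thymidine kinase of the salvage route, had a log2 change of -1.31, adjusted p = 0.0572 by limma, and Tyms had -2.15, adjusted p = 0.158. Rrm1 and Rrm2, the large and small subunits of ribonucleotide reductase, had -0.64 and -0.03. Against uninjected embryos in place of the control, 11 of the 45 passed, in a comparison in which 14.4% of all genes passed. Those added were Mcm7 (-0.81), Rpa3 (-1.01), which belongs to the single-strand binding complex, Tk1 (-1.40) and Tyms (-3.19), and Rfc5 was lost. Without the third uninjected array, the one with the high granulosa and cumulus sum, 8 of the 45 passed, 7 of them shared with the control comparison, and Rfc2 was lost (adjusted p = 0.0926). Fitted on the arrays of the joint experiment alone, the adjusted p was 0.0706 for Rfc2, 0.0619 for Rfc5 and 0.0683 for Cdt1. Rfc5 had no further probe set. Of 11 further probe sets of the other genes that passed, all 11 differed in the same direction as the one used. In 8 of the 11, a group mean lay above the median of the table. The others were dimmer, with differences of -0.13 (Cdt1), -0.27 (Mcm5) and 0.21 (Orc1).

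**Figure D1:**
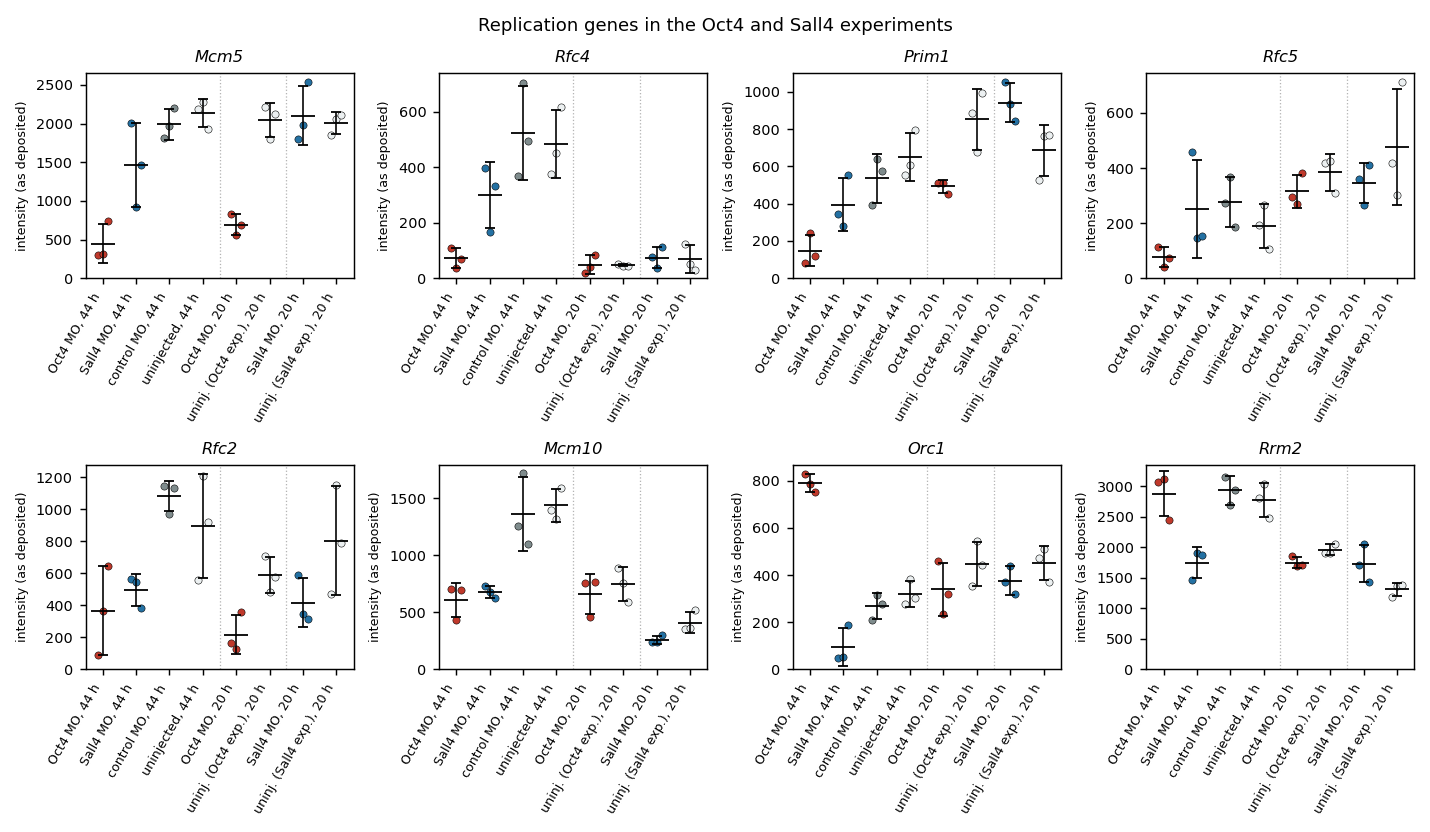
Intensity as deposited (linear axis) of 8 genes in the 44 h and 20 h groups of the Oct4 and Sall4 experiments. Points are arrays and bars the mean ± SD of n = 3. Among the 44 h groups, Mcm5, Rfc4 and Prim1 sit lowest with the Oct4 morpholino. Orc1 there sits above the control with the Oct4 morpholino and below it with the Sall4 morpholino.

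The promoters of genes that moved together are shown because replication genes are textbook targets of the E2F factors, which switch on genes of S phase. RefSeq windows (GRCm38.p6) from 250 bases before to 50 bases after the start were available for 37 of the 45 genes, as 45 windows. Searched on both strands were the E2F forms TTTCCCGC, TTTGGCGC and TTCCCGCC, where TTCCCGCC was added after the sequences had been read and can overlap TTTCCCGC. At least 1 of the 3 forms stood in 35.6% of the 45 windows, against 3.21% of all 32851 windows of the table. The 5 letters CCAAT, a common promoter element, stood in 55.6% of them, against 37.4% of all windows. The octamer ATGCAAAT, which Oct factors bind, stood in 0 of the 45 and in 1.74% of all windows. Among the genes that passed with the Oct4 morpholino at 44 h, 7 of 8 had a window and 4 of these held an E2F form (Cdt1, Mcm5, Prim1 and Rfc4). Among those that did not pass, 30 of 37 had a window and 12 held one. Prim1 and Rfc4 hold only the form added later. With the other 2 forms alone, 2 of the 7 (Cdt1 and Mcm5) and 10 of the 30 held one, so the order of the shares turned round, and the 2 forms stood in 26.7% of the 45 windows, against 1.56% of all windows. Below are the 3 genes with the smallest adjusted p among those that fell and Orc1, which rose, with E2F letters in capitals. They lie at chr8:75109259-75109558 (plus strand) for Mcm5, chr16:23127681-23127980 (minus strand) for Rfc4, chr10:128014965-128015264 (plus strand) for Prim1 and chr4:108579204-108579503 (plus strand) for Orc1.
Mcm5: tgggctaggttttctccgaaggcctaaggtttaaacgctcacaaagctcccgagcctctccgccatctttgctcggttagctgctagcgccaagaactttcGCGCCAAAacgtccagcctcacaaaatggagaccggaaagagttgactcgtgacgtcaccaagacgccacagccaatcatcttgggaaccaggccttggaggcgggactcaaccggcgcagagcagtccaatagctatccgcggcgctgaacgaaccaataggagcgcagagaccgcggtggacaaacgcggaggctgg
Rfc4: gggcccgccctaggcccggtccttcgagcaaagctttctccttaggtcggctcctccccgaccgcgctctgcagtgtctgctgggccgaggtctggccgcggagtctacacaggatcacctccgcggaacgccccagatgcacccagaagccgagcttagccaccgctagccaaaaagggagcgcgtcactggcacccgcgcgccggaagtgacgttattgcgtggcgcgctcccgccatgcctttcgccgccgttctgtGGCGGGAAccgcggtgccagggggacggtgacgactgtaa
Prim1: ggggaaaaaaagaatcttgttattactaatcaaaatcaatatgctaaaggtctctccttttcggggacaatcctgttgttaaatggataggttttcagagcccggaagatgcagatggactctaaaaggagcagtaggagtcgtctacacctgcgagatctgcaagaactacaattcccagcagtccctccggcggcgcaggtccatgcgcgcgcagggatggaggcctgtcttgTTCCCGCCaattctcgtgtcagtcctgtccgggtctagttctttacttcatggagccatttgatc
Orc1: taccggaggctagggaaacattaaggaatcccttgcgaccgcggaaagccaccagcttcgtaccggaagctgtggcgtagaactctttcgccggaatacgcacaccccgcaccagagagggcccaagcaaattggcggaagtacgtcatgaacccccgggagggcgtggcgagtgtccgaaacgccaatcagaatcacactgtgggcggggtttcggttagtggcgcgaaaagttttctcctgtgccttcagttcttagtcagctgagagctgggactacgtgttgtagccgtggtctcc
The 3 forms are letters found in these windows, and no binding was measured here. Orc1 held none of the 3 forms in its window. Other spellings were not searched, so the window cannot be said to lack E2F letters. It holds GCGCGAAA, which differs by 1 letter from GCGCCAAA, marked in Mcm5, and was not counted.

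With the Sall4 morpholino at 44 h, 3 of the 45 genes fell and 0 rose, in a comparison in which 3.97% of all genes passed. The 3 are 6.67% of the 45, and the difference in shares was not tested. By direction, 2.13% of all genes fell and 1.83% rose. The median log2 change of the 45 was -0.27, with 33 below 0, beside -0.02 over all genes tested. The control and uninjected arrays were the ones used for the Oct4 morpholino. Of 16 early embryo markers, 2 rose and 1 fell, with sums of 24331 to 30027 with the Sall4 morpholino and 26681 to 29668 with the control, and their part in the result was not tested.

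Orc1 read 49.8, 50.9 and 189 on the Sall4 morpholino arrays, against 211, 316 and 279 on the control arrays. The third knockdown array was the highest of its group and still lay below every control array (log2 change -1.54, SE 0.323, adjusted p = 0.00423, limma). A dimmer probe set of Orc1 went the other way, with a difference of 0.51, and the mean of both probe sets did not pass (adjusted p = 0.348). The call was also lost without the second Sall4 morpholino array (adjusted p = 0.0575). Mcm10 read 731, 676 and 624 with the Sall4 morpholino, a tight group below 1259.8, 1719.7 and 1101 with the control (log2 change -0.97, SE 0.223, adjusted p = 0.00997, limma). Without the second control array its adjusted p was 0.0888. Rrm2, the small subunit of ribonucleotide reductase, read 1455, 1905 and 1879 with the Sall4 morpholino and 3155, 2694 and 2934 with the control. The groups did not overlap (log2 change -0.75, SE 0.163, adjusted p = 0.00628, limma), although the call was lost after quantile normalization (adjusted p = 0.101).

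Other genes did not pass with the Sall4 morpholino. Rpa1, the large subunit of the single-strand binding complex, had a log2 change of -1.95, adjusted p = 0.0599, and Rfc1 had -0.65, adjusted p = 0.0817. Mcm5 (-0.50), Rfc4 (-0.81) and Prim1 (-0.45) had smaller changes than with the Oct4 morpholino, and the differences are tested in the next comparison. Against uninjected embryos, 6 of the 45 passed (6.95% of all genes did), which added Rfc1 (-0.75), Rpa1 (-1.96) and Tyms (-3.63). Without the third uninjected array, 3 passed, the same 3 as against the control. Fitted on the arrays of the joint experiment alone, none of the 3 passed against the control, with adjusted p of 0.0984 for Mcm10, 0.0992 for Orc1 and 0.111 for Rrm2.

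The Oct4 and the Sall4 morpholino at 44 h were compared directly, array against array of 1 experiment. Of the 45 genes, 3 were higher and 5 lower with the Oct4 morpholino, which is 17.8% of the 45 in a comparison in which 7.07% of all genes passed. By direction, 3.71% of all genes were higher and 3.36% lower. Early embryo markers moved here too, with 3 of 16 lower with the Oct4 morpholino and sums of 22033 to 24876, against 24331 to 30027 with the Sall4 morpholino. Their part in the result was not tested.

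Orc1 showed the largest difference, with 752 to 828 over the Oct4 morpholino arrays and 49.8 to 189 over the Sall4 morpholino arrays (log2 change 3.06, SE 0.323, adjusted p = 1.48e-07, limma). Its dimmer probe set differed by -0.30, in the other direction. Dut, which removes dUTP before it can enter DNA, read 1426, 2109 and 1843 with the Oct4 morpholino and 1303, 509 and 1141 with the Sall4 morpholino (log2 change 0.94, SE 0.235, adjusted p = 0.0106, limma). Its call rested on the second Oct4 morpholino array (adjusted p without it 0.0597) and the second Sall4 morpholino array (0.146), and the mean of its probe sets did not pass (0.688), 1 of them differing by -0.21. Rrm2 read 3067, 3113 and 2445 with the Oct4 morpholino, above 1455, 1905 and 1879 with the Sall4 morpholino (log2 change 0.72, SE 0.163, adjusted p = 0.00499, limma). After quantile normalization the adjusted p of Rrm2 was 0.0508.

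The 5 genes that were lower with the Oct4 than with the Sall4 morpholino were Mcm5, Rfc4, Rfc5, Prim1 and Mcm7. Mcm5, at 296, 314 and 736 with the Oct4 morpholino, held 2010.1, 919 and 1464 with the Sall4 morpholino (log2 change -1.73, SE 0.254, adjusted p = 4.17e-05, limma). Rfc4, at 38.1 to 109 with the Oct4 morpholino, held 396, 166 and 333 with the Sall4 morpholino (log2 change -1.85, SE 0.461, adjusted p = 0.0106, limma). The second Sall4 morpholino array was the lowest of its group for both genes, and neither gene overlapped. Rfc5 held 39.7 to 112 with the Oct4 morpholino and 458, 147 and 152 with the Sall4 morpholino (log2 change -1.45, SE 0.429, adjusted p = 0.0338, limma). Prim1 held 82.2 to 243 with the Oct4 morpholino and 346, 282 and 556 with the Sall4 morpholino (log2 change -1.40, SE 0.289, adjusted p = 0.00214, limma). Mcm7, another ring subunit, read 1024, 1122 and 1027 with the Oct4 morpholino and 1917, 1651 and 1564 with the Sall4 morpholino (log2 change -0.68, SE 0.215, adjusted p = 0.0490, limma). None of the 5 overlapped between the groups.

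Some of these calls rested on single arrays. Mcm7 did not pass without any 1 of the 6 arrays (adjusted p = 0.0629 to 0.161). Rfc4 did not pass without the second Oct4 morpholino array (0.0690) or the first Sall4 morpholino array (0.0628). Rfc5 did not pass without the first Sall4 morpholino array or either the second or the third Oct4 morpholino array (0.0697 to 0.248). Prim1 and Rrm2 passed whichever array was left out, but the mean over the probe sets of Prim1 did not pass (0.115). Rfc5 was also lost with a pseudocount of 64 (0.0880), Dut with array weights (0.0557), and Mcm7 with a pseudocount of 1 (0.0537), no filter (0.0538), quantile normalization (0.0752), the mean of its probe sets (0.0822) and array weights (0.0973). Fitted on the arrays of the joint experiment alone, Dut (0.161), Mcm7 (0.0876), Prim1 (0.0769), Rfc5 (0.145) and Rrm2 (0.0822) did not pass. Mcm5 and Orc1 passed whichever of the 6 arrays was left out and in all alternatives tried.

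**Figure D2:**
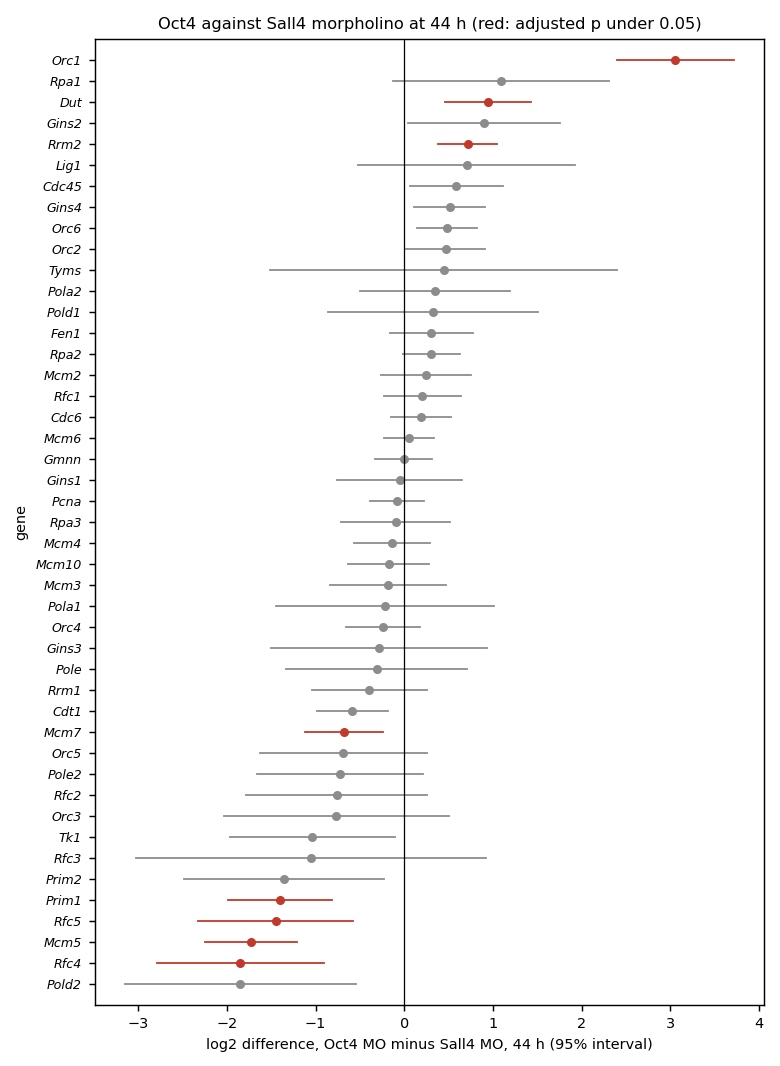
Log2 difference, Oct4 morpholino minus Sall4 morpholino at 44 h, for each of the 45 genes with its 95% interval (horizontal axis, log2 scale); red marks an adjusted p under 0.05. Orc1 stands farthest right at 3.06, with Dut and Rrm2 also passing on that side, while Rfc4, Mcm5, Rfc5, Prim1 and Mcm7 pass on the left.

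With the Nanog morpholino, Rrm1 was the 1 gene of the 45 that fell at both times, and no other passed. At 44 h, 1 of the 45 passed (2.22%), below the 5.01% of all genes, and at 20 h also 1, where 0.62% of all genes passed. The 45 genes had a median log2 change of -0.12 at 44 h (26 below 0) and -0.15 at 20 h (33 below 0), beside 0.05 and -0.02 over all genes tested. Of 16 early embryo markers, 2 rose and 1 fell at 44 h, with sums of 65768 to 68521 with the Nanog morpholino and 69537 to 74137 with the control, without overlap. At 20 h 1 rose and 0 fell, with sums of 66662 to 73615 with the Nanog morpholino and 60417 to 66033 with the control, again without overlap. Their part in the result was not tested.

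Rrm1 encodes the large subunit of ribonucleotide reductase, which holds the catalytic site that turns ribonucleotides into deoxyribonucleotides. At 44 h it read 1950.3, 2779 and 3279 with the Nanog morpholino, against 5522, 6437 and 6626 with the control morpholino. Uninjected embryos held 6848, 6514 and 5951, so all 3 knockdown arrays lay below the 6 others (log2 change -1.24, SE 0.320, adjusted p = 0.0192 against the control, limma). At 20 h it read 1091, 689 and 1543 with the Nanog morpholino and 3272, 4750.4 and 3032 with the control morpholino (log2 change -1.76, SE 0.320, adjusted p = 0.00456, limma). Uninjected embryos held 3823, 4384 and 2935 at that time, and the knockdown arrays again lay below the other 6. The call at 44 h was lost without the first Nanog morpholino array (adjusted p = 0.131), the second control array (0.0722) or the third (0.0583). At 20 h the other bright probe set of Rrm1 differed by -1.42, while a dim one, whose mean in both groups lay below the median of the table, differed by 1.30, and the mean of all its probe sets did not pass (adjusted p = 0.576). Fitted on the arrays of the Nanog experiment alone at each time, the adjusted p of Rrm1 was 0.0563 at 44 h and 0.190 at 20 h. The small subunit Rrm2 had log2 changes of -0.26 at 44 h and -0.42 at 20 h, neither of which passed.

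The Rrm1 window lies at chr7:102441445-102441744 (plus strand, GRCm38.p6, RefSeq) and is shown because this gene alone passed with the Nanog morpholino. Capitals mark E2F letters, here TTCCCGCC, the form added after the sequences had been read. Neither of the other forms searched stood in this window.
Rrm1: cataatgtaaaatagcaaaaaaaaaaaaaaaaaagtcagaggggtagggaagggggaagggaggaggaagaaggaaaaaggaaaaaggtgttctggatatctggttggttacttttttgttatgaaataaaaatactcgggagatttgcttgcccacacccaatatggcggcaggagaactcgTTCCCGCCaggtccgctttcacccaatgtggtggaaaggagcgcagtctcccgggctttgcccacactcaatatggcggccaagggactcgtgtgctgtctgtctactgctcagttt

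The change between 20 h and 44 h with the Nanog morpholino was set against that with the control morpholino as an interaction term, and 0 of the 45 passed with limma, where 0.827% of all genes did and 4 of the 45 had an unadjusted p under 0.05. Smallest were Orc4, an origin recognition subunit (difference of log2 changes 0.97, unadjusted p = 0.00210, adjusted p = 0.121, limma), and Orc5 (-1.61, unadjusted p = 0.0189, adjusted p = 0.318, limma). That of Rrm1 was 0.53 (SE 0.453). Rfc4 had a log2 change of -1.31 with the Nanog morpholino at 44 h (adjusted p = 0.104, limma). Against uninjected embryos, Orc4 was added at 44 h (0.65), where 8.37% of all genes passed, and Rrm1 again was the 1 gene that passed at 20 h (-1.79), where 0.452% did.

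**Figure D3:**
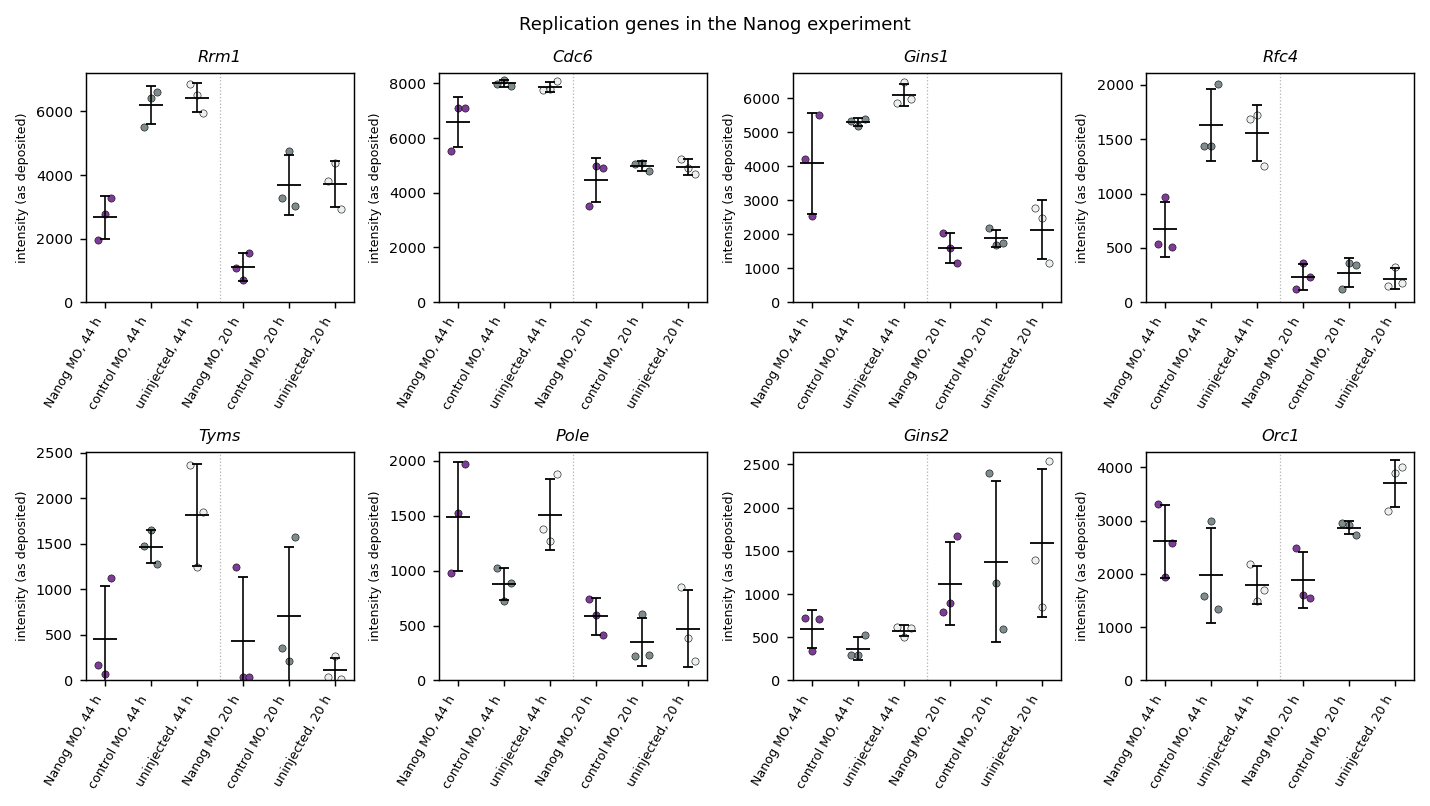
Intensity as deposited (linear axis) of 8 genes in the 6 groups of the Nanog experiment. Points are arrays and bars the mean ± SD of n = 3. Rrm1 is lowest with the Nanog morpholino at both times, and Rfc4, Gins1 and Cdc6 are higher at 44 h than at 20 h with every injection.

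At 20 h the Oct4 and Sall4 morpholinos were compared with uninjected embryos, since these experiments had no control-injected arrays, so that injection itself cannot be told apart from the knockdown. With the Oct4 morpholino, 1 of the 45 genes passed (2.22%), near the 2.02% of all genes. It was Mcm5, which read 828, 557 and 691 with the Oct4 morpholino, against 2218, 1797 and 2119 in uninjected embryos. The groups did not overlap (log2 change -1.55, SE 0.254, adjusted p = 0.000365, limma). Mcm5 thus passed in the same direction at both times, on arrays that the 2 comparisons do not share. The spread behind both tests was estimated once, from all 42 arrays. Fitted on the arrays of its own experiment alone, the adjusted p of Mcm5 at 20 h was 0.0707. The 11 granulosa and cumulus markers summed to 565 to 974 with the Oct4 morpholino and 303 to 464 in uninjected embryos, without overlap, and 0 of the 7 tested passed with limma. Of 16 early embryo markers 1 fell. The part of either in the result was not tested. The next smallest adjusted p were those of Mcm6 (-0.47, adjusted p = 0.0624) and Gins3, a subunit of the GINS complex (-1.91, adjusted p = 0.0983), neither of which passed with limma. With the Sall4 morpholino, 0 of the 45 passed with limma, where 0.233% of all genes did, and 8 of the 45 had an unadjusted p under 0.05. Smallest were Cdc45, which binds the helicase to start it (log2 change -0.80, unadjusted p = 0.00376, adjusted p = 0.216, limma), and Mcm10 (-0.61, unadjusted p = 0.0103, adjusted p = 0.321, limma). Granulosa and cumulus markers summed to 272 to 947 with the Sall4 morpholino and 131 to 203 in uninjected embryos, without overlap, and 1 of the 7 tested rose. Their part in these values was not tested.

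Injection of the control morpholino was set against no injection in 3 comparisons, and 0 of the 45 genes passed in each with limma. At 44 h, in the experiment of Oct4 and Sall4, 0.0969% of all genes passed and 0 of the 45 had an unadjusted p under 0.05. The smallest were those of Rpa3 (-0.60, unadjusted p = 0.0548, adjusted p = 0.913, limma) and Gins2 (-0.63, unadjusted p = 0.139, limma). In the Nanog experiment at 44 h, where 0.349% of all genes passed, 1 of the 45 had an unadjusted p under 0.05: Rpa1 (1.22, unadjusted p = 0.0494, adjusted p = 0.478, limma), followed by Orc6 (-0.32, 0.0635). In the Nanog experiment at 20 h, where 0.0905% passed, it was Tyms (2.63, unadjusted p = 0.00988, adjusted p = 0.523, limma), followed by Mcm10 (-0.44, 0.0559).

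Between 20 h and 44 h of culture, only the Nanog experiment held all groups at both times. Many genes of the embryo changed over this interval. Taken over both directions, the share of the 45 genes that passed was near or below that of all genes, a difference that was not tested. Split by direction, more of the 45 rose than fell in each comparison, while more of all genes fell than rose. That contrast was not tested either. In uninjected embryos 11 of the 45 passed (24.4%), against 25.6% of all genes, with 8 higher and 3 lower at 44 h, where 9.28% of all genes were higher and 16.3% lower. With the control morpholino 7 passed (15.6%, against 23.3% of all genes), with 4 higher and 3 lower, beside 7.17% and 16.2% of all genes. With the Nanog morpholino 8 passed (17.8%, against 19.8%), with 6 higher and 2 lower, beside 8% and 11.8% of all genes. Rfc4, Gins1 and Cdc6 passed with every injection, which is 6.67% of the 45, against 10.4% of all genes. In at least 1 of the 3 comparisons 18 (40%) passed, against 37.3% of all genes. Markers moved over time too. Of 16 early embryo markers 5 rose and 5 fell in uninjected embryos, 6 rose and 4 fell with the control morpholino, and 3 rose and 1 fell with the Nanog morpholino. The 10 blood and stroma markers summed to 3000 to 3514 at 44 h and 1556 to 2265 at 20 h in uninjected embryos, where 0 of the 7 tested passed with limma. They summed to 2936 to 4410 at 44 h and 1048 to 2459 at 20 h with the control morpholino, where 2 rose, and to 1719 to 4616 at 44 h and 1123 to 2079 at 20 h with the Nanog morpholino, where 1 rose. The part of these markers in the results was not tested.

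Rfc4 read 1689.7, 1724 and 1257 at 44 h and 152, 327 and 174 at 20 h in uninjected embryos (log2 change 2.81, SE 0.461, adjusted p = 2.34e-05, limma). With the control morpholino it read 1438, 1433 and 2012 at 44 h and 117, 364 and 338 at 20 h (log2 change 2.63, SE 0.461, adjusted p = 6.92e-05, limma). With the Nanog morpholino it read 532, 965 and 511 at 44 h and 117, 358 and 232 at 20 h (log2 change 1.51, SE 0.461, adjusted p = 0.0190, limma). All 9 arrays of 44 h thus lay above all 9 of 20 h. The difference between the injections did not pass (interaction -1.13, SE 0.652).

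Gins1, a subunit of the GINS complex that joins the helicase, also rose over time. It read 5847, 6467 and 5986 at 44 h and 2782, 2466 and 1160.3 at 20 h in uninjected embryos (log2 change 1.60, SE 0.345, adjusted p = 0.000676, limma). With the control morpholino it read 5325, 5173 and 5388 at 44 h and 2169.6, 1695 and 1755 at 20 h (log2 change 1.50, SE 0.345, adjusted p = 0.00147, limma), and with the Nanog morpholino 4199, 2538 and 5515 at 44 h and 2021, 1595 and 1149.6 at 20 h (log2 change 1.32, SE 0.345, adjusted p = 0.00614, limma). Its partner Gins2 went the opposite way. Gins2 read 613, 503 and 609 at 44 h and 1392, 852 and 2533 at 20 h in uninjected embryos (log2 change -1.31, SE 0.418, adjusted p = 0.0190, limma). The control morpholino arrays held 289, 291 and 527 at 44 h and 2402, 1125 and 601 at 20 h (log2 change -1.69, SE 0.418, adjusted p = 0.00293, limma), and with the Nanog morpholino Gins2 did not pass (-0.90). Cdc6 rose by less and with little spread, to 7753 to 8070.1 at 44 h against 4689 to 5242 at 20 h in uninjected embryos (0.67), 7885 to 8138 against 4787 to 5090.1 with the control morpholino (0.68) and 5538 to 7115 against 3527 to 4967 with the Nanog morpholino (0.57).

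In uninjected embryos, genes of the strand polymerases and of nucleotide supply were among those that rose. Tyms, thymidylate synthase, read 2369, 1243 and 1847 at 44 h and 36.1, 273 and 20.5 at 20 h (log2 change 4.44, SE 0.958, adjusted p = 0.000694, limma). Pold1, the catalytic subunit of polymerase delta, read 2916, 1640.2 and 2554 at 44 h and 333, 575 and 1057 at 20 h (log2 change 1.94, SE 0.580, adjusted p = 0.0124, limma). Pole, the catalytic subunit of polymerase epsilon, read 1378, 1269.6 and 1878 at 44 h and 854, 383 and 174 at 20 h (log2 change 1.89, SE 0.502, adjusted p = 0.00488, limma). None of these overlapped between the times. Orc3 read 2120.0, 1459.6 and 3191 at 44 h and 505, 1114 and 272 at 20 h (log2 change 1.97, SE 0.622, adjusted p = 0.0180, limma), but its other probe sets differed by -1.43 and -0.33. Orc1 read 2179, 1497 and 1703 at 44 h and 3186, 3899 and 4007 at 20 h (log2 change -1.05, SE 0.323, adjusted p = 0.0152, limma). Cdc45 (-0.75) also fell and Rrm2 (0.51) also rose. Tyms with the control morpholino, at 1285 to 1649.6 at 44 h and 209 to 1576 at 20 h, did not pass (1.54), and neither did it with the Nanog morpholino (0.82). Other probe sets opposed the direction of Orc1 (0.14), Rrm2 (-0.06) and Tyms (-0.71). With the mean of all probe sets, Orc1 (0.212), Orc3 (0.900) and Rrm2 (0.0561) did not pass, nor did Gins2 on the arrays of the experiment alone (0.0727) or Cdc45 after scaling to a trimmed mean (0.0555), values being limma's adjusted p.

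With the control morpholino, Pole read 1019, 725 and 882 at 44 h and 225, 605 and 228 at 20 h (log2 change 1.41, SE 0.502, adjusted p = 0.0388, limma). Orc6 read 3689.6, 5064 and 4756 at 44 h and 7206, 6299.6 and 7445 at 20 h (log2 change -0.64, SE 0.165, adjusted p = 0.00418, limma). Orc2 read 4599.8, 4652 and 4408 at 44 h and 6741, 6868 and 7091 at 20 h (log2 change -0.60, SE 0.218, adjusted p = 0.0443, limma). Both subunits of the origin recognition complex fell without overlap. The call of Orc2 was lost with a pseudocount of 1 (adjusted p = 0.0645), after median centring (0.0821) and after scaling to a trimmed mean (0.169). That of Pole was lost with a pseudocount of 1 (0.0694) and on the arrays of the experiment alone (0.0512).

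With the Nanog morpholino, Rrm1 rose over time, with the 44 h arrays given above all higher than those of 20 h (log2 change 1.30, SE 0.320, adjusted p = 0.00383, limma). Pold2, an accessory subunit of polymerase delta, read 951, 655 and 324 at 44 h and 250.3, 90.2 and 36.6 at 20 h (log2 change 2.40, SE 0.636, adjusted p = 0.00679, limma). Orc4 read 4622, 4194 and 4123 at 44 h and 2159, 2413 and 3260.2 at 20 h (log2 change 0.74, SE 0.205, adjusted p = 0.00950, limma). These 3 rose without overlap. Orc5 read 557, 631 and 1689 at 44 h and 3278, 3341 and 3309.5 at 20 h (log2 change -1.95, SE 0.461, adjusted p = 0.00257, limma), and Rpa3 read 1844, 1661 and 2511 at 44 h and 3792, 3743 and 3409.9 at 20 h (log2 change -0.88, SE 0.301, adjusted p = 0.0367, limma). Both fell. Other probe sets opposed the direction of Orc4 (-0.05) and Rrm1 (-1.37). With the mean of all probe sets the log2 change of Rrm1 was 0.22 (adjusted p = 0.703), and Orc4 did not pass either (0.0992). Rpa3 was lost with a pseudocount of 1 (0.0563), after scaling to a trimmed mean (0.0720) and with array weights (0.0552).

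Several calls over time rested on single arrays. In uninjected embryos, the call of Tyms, Rfc4, Gins1 and Cdc6 held whichever array was left out. Without the third 20 h array, Gins2 (0.158), Orc1 (0.0541), Orc3 (0.123), Pole (0.0669), Rrm2 (0.135) and Cdc45 (0.0781) did not pass, values being limma's adjusted p. Pold1 did not pass without the first array of either time (0.0530 to 0.0874). Further single arrays ended the calls of Orc3 (the first at 20 h, 0.0503, and the third at 44 h, 0.0847) and of Rrm2 (the third at 44 h, 0.0728). Without the second 44 h array, Gins2 (0.0674), Orc1 (0.0704) and Cdc45 (0.152) did not pass. Cdc45 was also lost without the second 20 h array (0.0928) or the first 44 h array (0.0597). With the control morpholino, Orc2 was lost without any 1 array (0.0814 to 0.111) and Pole without any but the second 20 h array (0.0572 to 0.156). With the Nanog morpholino, Rpa3 was lost without any but the third 44 h array (0.0631 to 0.126). Without the first 20 h array, Cdc6 (0.122), Orc4 (0.0645) and Rfc4 (0.138) did not pass. Without the second 44 h array, Rfc4 (0.0989) and Cdc6 (0.0550) did not pass. Without the third 44 h array, Cdc6 (0.0651) and Gins1 (0.0548) did not pass, nor did Pold2 without the third 20 h array (0.0658).

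**Figure D4:**
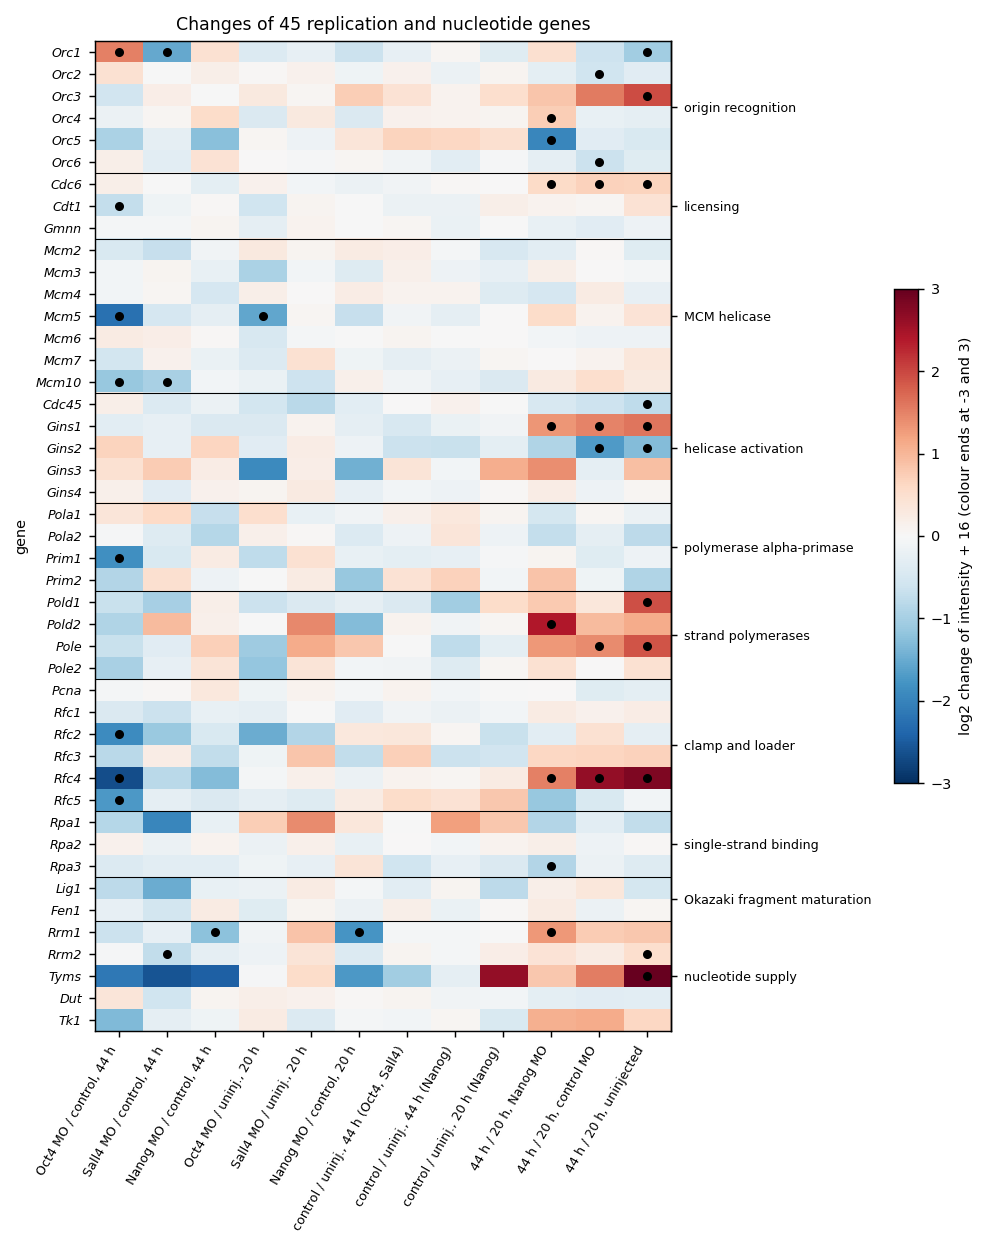
Log2 change (colour, ends at ±3) of the 45 genes, grouped by role, in 12 comparisons; dots mark an adjusted p under 0.05. The column of the Oct4 against the control morpholino at 44 h carries the dots of Mcm5, Mcm10, Rfc2, Rfc4, Rfc5, Prim1, Cdt1 and Orc1, and the Nanog morpholino columns carry that of Rrm1.

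Genes around the 45 were read from 5 wider lists, with 104 genes tested. With the Oct4 morpholino at 44 h, 18 of the 104 passed (17.3%, against 11.6% of all genes), 10 lower (9.62%, against 6.18%) and 8 higher (7.69%, against 5.38%). Differences between these shares were not tested, here or for the other comparisons. By list, 5 of 29 genes of wider nucleotide synthesis fell and 1 rose, and 3 of 32 genes of the fork and origin firing fell and 2 rose. In G1/S control 3 of 23 rose and 0 fell, in histone supply 1 of 9 rose and 1 fell, and in the replication checkpoint 1 of 11 rose and 1 fell. The largest falls were those of Rnaseh2a, the catalytic subunit of the nuclease that removes RNA from DNA (-3.70), Hells, a chromatin remodelling helicase (-3.59), Dtymk, thymidylate kinase (-2.88), and Hat1, which acetylates new histone H4 (-2.03). The largest rises were those of Cdkn1c, an inhibitor of cyclin-dependent kinases (2.90), Mcm9, a relative of the helicase subunits that acts in DNA repair (1.18), Rad17, which loads the checkpoint clamp (0.97), and Rrm2b, the reductase subunit that p53 induces (0.85). Dtymk acts after both Tk1 and Tyms on the route to thymidine triphosphate.

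With the Sall4 morpholino at 44 h, 6 of the 104 passed (5.77%, near the 3.97% of all genes). Pold3, an accessory subunit of polymerase delta (-1.62), Chtf18, a clamp loader subunit (-1.53), Fbxo5, an inhibitor of the anaphase-promoting complex (-1.01), and Rbbp7, a histone chaperone (-0.43), fell. Rad17 (1.04) and Rrm2b (0.80) rose, as they did with the Oct4 morpholino against the same control arrays. By list, 2 of 32 fork genes, 1 of 9 histone genes and 1 of 23 G1/S genes fell, and 1 of 11 checkpoint genes and 1 of 29 nucleotide genes rose. Between the Oct4 and the Sall4 morpholino, 18 of the 104 passed (17.3%, against 7.07% of all genes), 9 in each direction. Hells (-3.85), Rnaseh2a (-2.83), Hat1 (-1.95) and Hus1, a part of the checkpoint clamp (-1.95), were lower with the Oct4 than with the Sall4 morpholino. Cdkn1c (2.48), Ccne2, an E-type cyclin (2.35), Chtf18 (1.53) and E2f4, a repressing E2F (1.25), were higher.

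With the Nanog morpholino at 44 h, 4 of the 104 rose and 0 fell (3.85%, against 5.01% of all genes in both directions). They were the kinase inhibitor Cdkn1b (1.85), Mcm9 (1.65), the checkpoint clamp gene Rad1 (1.36) and E2f1, an activating E2F (1.35). Over time in uninjected embryos, 32 of the 104 passed (30.8%, against 25.6% of all genes), 21 lower (20.2%, against 16.3%) and 11 higher (10.6%, against 9.28%). By list, 9 of 23 genes of G1/S control fell and 2 rose, and 6 of 32 fork genes fell and 2 rose. In wider nucleotide synthesis 6 of 29 rose and 3 fell. The largest rises were those of Mthfd1, an enzyme of folate metabolism (3.77), Rnaseh2b (3.17) and Rnaseh2c (3.10), partners of Rnaseh2a, and E2f6 (2.19). The largest falls were those of Rb1, which holds E2F factors back (-3.24), E2f8 (-2.88), Mcm9 (-2.62) and Cdkn1c (-2.44).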

How the data were processed

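RNA of embryos was isolated with a PicoPure kit, amplified with WT-Ovation One-Direct reagents and biotin-labelled for Affymetrix arrays, per the labels' protocols. The authors deposited a table of intensity values, with 45101 probe sets in rows and 42 arrays in columns. The steps from scanner image to deposited intensity, and any scaling between arrays, are not given in the sources used here. They are linear, hold no negative value and reach down to 0.42, with 46022 values at exactly 1.

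Samples were grouped by the titles into 14 groups of 3 arrays, which the titles number as biological replicates. Replicates correlated at 0.896 to 0.964 on the log2 scale, and no pair of arrays was higher. The array annotation gave 1 gene symbol to 34945 probe sets, several to 932, which were not used, and none to 9160, beside 64 controls. Of these, 34741 matched RefSeq by Entrez identifier, with 0 symbols changed. Each gene was read through its probe set with the highest mean log2(intensity + 16). Testing was limited to genes whose mean in some group exceeded the table's median of 71.15 (6.45 on the log2 scale), which left 15478 of 18193 genes. The filter pools both intensity scales, so a gene can pass it through the Nanog experiment alone.

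A single linear model, with 14 group means and 28 residual degrees of freedom, was fitted to all 42 arrays in R 4.3.3 (limma 3.58.1, statmod 1.5.0). The 14 comparisons were tested two-sided with Benjamini-Hochberg adjustment over all genes tested, at an adjusted p under 0.05. With 3 arrays against 3, an exact permutation test cannot go below p = 0.1. In each comparison every gene of the 45 that passed was named, with values on every array for the 8 largest changes among those without overlap, and where 0 passed, the 2 smallest unadjusted p. Wider pathway genes were named by the 4 largest rises and falls. The 45 genes and all lists were chosen with earlier results of these data known. Some genes of the wider lists were not analysed here.

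Same-numbered arrays were checked for pairing. Over 42 pairs, deviations from the group means correlated at -0.05 to 0.14, and only in the comparison of control morpholino with uninjected embryos at 20 h in the Nanog experiment did every pair exceed 0.1, where 0 of the 45 genes passed with and without the block. Alternatives were other pseudocounts, filters, normalizations and probe set rules, the arrays of each experiment alone, array weights, a replicate block, uninjected embryos as reference (also, chosen after seeing the data, without 1 uninjected array of 44 h) and leaving out each array. Promoter windows came from RefSeq (GRCm38.p6). No genome was used here. Tables and plots were made in Python 3.11.15 (pandas 2.3.3, numpy 2.4.6, matplotlib 3.10.9).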

Additional observations from a re-analysis of the deposited data

Results flagged for a closer look

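Mcm6 and Rrm2 moved in opposite directions at the 2 times on every array, and the difference between the times was not tested, because the 2 times belong to separate experiments with other references. They were picked by a screen of all 45 genes for this pattern, and its share over all genes was not computed. Of all 15478 genes, 4407 did not overlap with the Oct4 morpholino at 44 h and 3024 at 20 h. With the Sall4 morpholino 3420 and 1905 did not. With the Oct4 morpholino, Mcm6 had a log2 change of 0.25 at 44 h against control-injected embryos and -0.47 at 20 h against uninjected embryos. All 3 knockdown arrays lay above the arrays they were set against at 44 h and below them at 20 h. Neither change passed (adjusted p = 0.262 at 44 h and 0.0624 at 20 h, limma). With the Sall4 morpholino, Rrm2 had a log2 change of -0.75 at 44 h, which passed, and 0.39 at 20 h, which did not (adjusted p = 0.00628 and 0.425, limma).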

How the results depend on the processing

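The log2 changes followed through the alternatives were those of replication and nucleotide supply genes in comparisons in which they passed. Across the alternatives, 778 values kept their direction and side of the threshold, 110 kept the direction and lost the threshold, and 0 reversed. These changes were chosen for passing and the refits reuse arrays of the main fit, so the lack of reversals is a weak check. The counts cover neither changes that did not pass nor genes of the wider lists. With the Oct4 morpholino at 44 h, Mcm5, Mcm10, Orc1, Prim1 and Rfc4 passed under every alternative and whichever of the 6 arrays was left out. The fit on the arrays of each experiment alone, which has fewer samples, left 0 genes for the Oct4 morpholino at 20 h, the Nanog morpholino at 20 h, the Sall4 morpholino at 44 h and the Nanog morpholino at 44 h. Between the Oct4 and the Sall4 morpholino it gave 5, of which 3 are among the 8 reported. For the Oct4 morpholino at 20 h, 2 genes passed with a pseudocount of 64, with a filter at the 75th percentile, with a filter on the arrays' own medians and with the mean of all probe sets, and 7 with array weights, beside 1 as reported. For the Sall4 morpholino at 44 h, 5 passed with array weights and 6 against uninjected embryos (3 without the third uninjected array, an alternative chosen after seeing the data), beside 3. For the Nanog morpholino at 44 h, 3 passed with a pseudocount of 64, 4 after quantile normalization (3 higher, 1 lower), 2 with the mean of all probe sets and 2 against uninjected embryos, beside 1. Over time with the control morpholino, 11 passed with a pseudocount of 64, 14 after quantile normalization and 12 with the mean of all probe sets, beside 7, and with the Nanog morpholino 14 passed after quantile normalization, beside 8. Scaling to a trimmed mean gave 10 higher and 2 lower over time in uninjected embryos (8 and 3 as reported), 6 and 2 with the control morpholino (4 and 3, or 5 and 2 after median centring) and 7 and 1 with the Nanog morpholino (6 and 2). Causes were not tested. Median centring moved the median log2 change of all genes to 0.01 from -0.09 for the control morpholino against no injection at 44 h in the Nanog experiment, and the trimmed mean moved it to 0.04 from -0.09 over time with the control morpholino.

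Leaving out 1 array at a time gave 1 to 4 genes for the Oct4, 0 for the Sall4 and 1 for the Nanog morpholino at 20 h. At 44 h it gave 6 to 8 for the Oct4 morpholino, 2 to 5 for the Sall4 morpholino, 0 to 3 for the Nanog morpholino, 5 to 8 between the Oct4 and the Sall4 morpholino, and 0 for each control morpholino comparison with uninjected embryos. Over time it gave 5 to 10 in uninjected embryos, 5 to 6 with the control morpholino, 4 to 8 with the Nanog morpholino and 0 for the interaction. Without Oct4 morpholino replicate 2 or Sall4 morpholino replicate 1 it gave 5 between these morpholinos, and for Nanog at 44 h 0 without control replicates 2 or 3 or Nanog morpholino replicate 1. The count of 4 came without the first Oct4 morpholino array, that of 5 for Sall4 without Sall4 morpholino replicate 3, that of 3 for Nanog without Nanog morpholino replicate 3, and those of 5 and 4 over time without uninjected replicate 3 and Nanog morpholino replicate 1 of 20 h.

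With the replicate number as a block, 2 genes passed for the Oct4 morpholino at 20 h and 11 over time with the control morpholino. The block gave 9, 4 and 1 for the Oct4, Sall4 and Nanog morpholinos at 44 h and changed no other count by over 1.5 times. It ended the call of Mcm7 between the Oct4 and the Sall4 morpholino (adjusted p = 0.0504). The labels of same-numbered arrays share only a number. Outside the 1 comparison named above, their correlations did not all exceed 0.1, which does not show that these arrays are unpaired. Depth cannot be read from arrays, and for dim genes such as Tyms the signal over background limits what can be detected.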

Other observations

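Tyms, thymidylate synthase, had a lower mean in all 3 knockdowns at 44 h than with the control morpholino, without passing. It read 34.9, 49.6 and 13.7 with the Oct4 morpholino and 51.0, 6.16 and 10.4 with the Sall4 morpholino, against 201, 119.5 and 277 with their shared control morpholino and 227, 151 and 1818 in uninjected embryos. In the Nanog experiment it read 173, 76.7 and 1126 with the Nanog morpholino, against 1472, 1649.6 and 1285 with the control morpholino and 2369, 1243 and 1847 in uninjected embryos. Limma's adjusted p was 0.158, 0.135 and 0.153 for Oct4, Sall4 and Nanog against the control morpholino. Against uninjected embryos Tyms passed with the Oct4 and the Sall4 morpholino, by limma's adjusted p = 0.0217 and 0.0167, which included the uninjected array of 1818. Without that array Tyms did not pass with the Sall4 morpholino. With the Nanog morpholino it did not pass against uninjected embryos. The pooled SD of 1.22 on the log2 scale is among the highest of the 45 genes.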
